A study of Mus musculus with 5 samples.

Results

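Cadherins and protocadherins were followed through the differentiation of mouse embryonic stem cells (ESCs) towards heart muscle, in control cells and in cells labelled as a knockdown of the long non-coding RNA Linc1405. The members were all genes whose symbol on the array begins with Cdh and a number or with Pcdh. With the brightest probe standing for each gene, they came to 56 of the 17742 genes with a named probe, 24 of them cadherins and 32 protocadherins. A total of 74 probes carried these symbols, and 11 members had more than 1 probe. The choice used gene names only and no measured value.

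Classical cadherins are calcium-dependent adhesion molecules that bind the same or related cadherins on a neighbouring cell and are held to the actin cytoskeleton by catenins. Early embryos use them to sort tissues: E-cadherin holds epithelia and ESCs together, and cells that leave the epithelium at gastrulation lose it and gain N-cadherin, which later joins heart muscle cells at the intercalated disc. Protocadherins adhere more weakly, do not bind catenins in the classical way and help to pattern tissue boundaries and neuronal contacts, and the clustered alpha, beta and gamma genes are known for neuron-by-neuron choice of promoters.

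Total RNA from 5 cultures was measured, with 1 single-colour array for each of 5 groups. ESCs of the 46C line, carrying the control genotype, were harvested at day 0. The knockdown line had no day 0 array, so its course before day 4 was not measured. Knockdown and control cells were harvested at day 4, when the labels call them mesoderm, and at day 10, when the labels call them cardiomyocytes. The knockdown samples bear the names MES_1405KIpA and CM_1405KIpA, which the labels do not explain, and Linc1405 itself was not among the named probes, so the knockdown was not checked. Nor do the labels say whether the modified line was 1 clone. ESCs grew on feeder cells, removed at harvest, in 15% serum with leukaemia inhibitory factor at 1000 U/ml. Day 4 cells of both genotypes were kept in serum-free N2 and B27 medium with VEGF at 5, Activin A at 5 and Bmp4 at 0.2 ng/ml. Day 10 cells of both genotypes were kept in StemPro-34-type medium with FGF10 at 25, bFGF at 10 and VEGF at 5 ng/ml. No group had a replicate, so a difference between groups has no replicate check, and no p-value was computed.

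Levels below are log2 intensities after quantile normalisation, with a floor at 6.64 under which values were not told apart. A gene was counted as higher or lower if the brighter of its arrays reached 9.16 (the 50th percentile) and the arrays lay at least 2-fold apart. The spread between probes of 1 gene gives an error for a single probe, though not for a culture. Its SD was 0.21 for knockdown minus control at day 4, 0.27 for the same at day 10, 0.60 for control day 4 minus ESCs, 0.73 for control day 10 minus day 4 and 0.70 for the knockdown line over the same days. This SD was taken from pairs of probes that reached the filter and lay above the floor on both arrays. It does not cover fainter members. Levels of different genes come from different probes and are not compared with each other.

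The labelled cell types were set against marker lists, as the summed intensity of each list. The 7 pluripotency markers with a named probe summed to 491384 in ESCs, 12754 in knockdown and 15303 in control cells at day 4, and 8761 in knockdown and 11658 in control cells at day 10. The 8 heart muscle markers reached 287216 in knockdown and 498474 in control cells at day 10, against 8611 to 11830 before. These markers did not all differ in the same direction at day 10. Tnnt2 was higher in knockdown (15.94 on the log2 scale) than in control cells (12.89). Actc1, Actn2, Ttn, Ldb3 and Nppa were lower in knockdown cells by at least 2-fold, and Tnni1 and Pln by less. Day 10 cultures of both lines also carried fibroblast markers (303326 in knockdown and 276980 in control cells), and they differed in liver-type markers (27387 in knockdown and 187327 in control cells) and epicardial markers (157388 in knockdown and 45360 in control cells). Day 10 cultures of both lines thus held markers of several cell types. In bulk cultures, fewer cells of a type and less RNA per cell cannot be told apart.

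Of the 56 members, 8 lay at the floor on all 5 arrays (Cdh8, Cdh9, Cdh12, Cdh19, Cdh23, Pcdh11x, Pcdhb5 and Pcdhb9), 25 rose above the floor somewhere but stayed under 9.16 on every array, and 23 reached it on at least 1 array. By the brightest probe, the number above the floor was 31 in ESCs, 37 in knockdown and 37 in control cells at day 4, and 46 in knockdown and 42 in control cells at day 10. The normalisation and the common floor hold the share over all named genes nearly constant, at 86.3 to 86.6%, so it is no measured background for these counts. The knockdown array at day 10 had 1050 deposited values at or below 0, against 0 to 38 on each other array. The part of this in its count was not tested. Type I cadherins reached the intensity filter in 4 of 5 genes, type II cadherins in 4 of 13 and the other cadherins in 3 of 6. Among protocadherins, the filter was reached by 2 of 4 delta-1, 2 of 5 delta-2, 2 of 3 other non-clustered and 6 of 20 clustered genes. The share of all named genes that reached the filter on at least 1 array is not given here. These counts are therefore not set against a background.

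**Figure D1:**
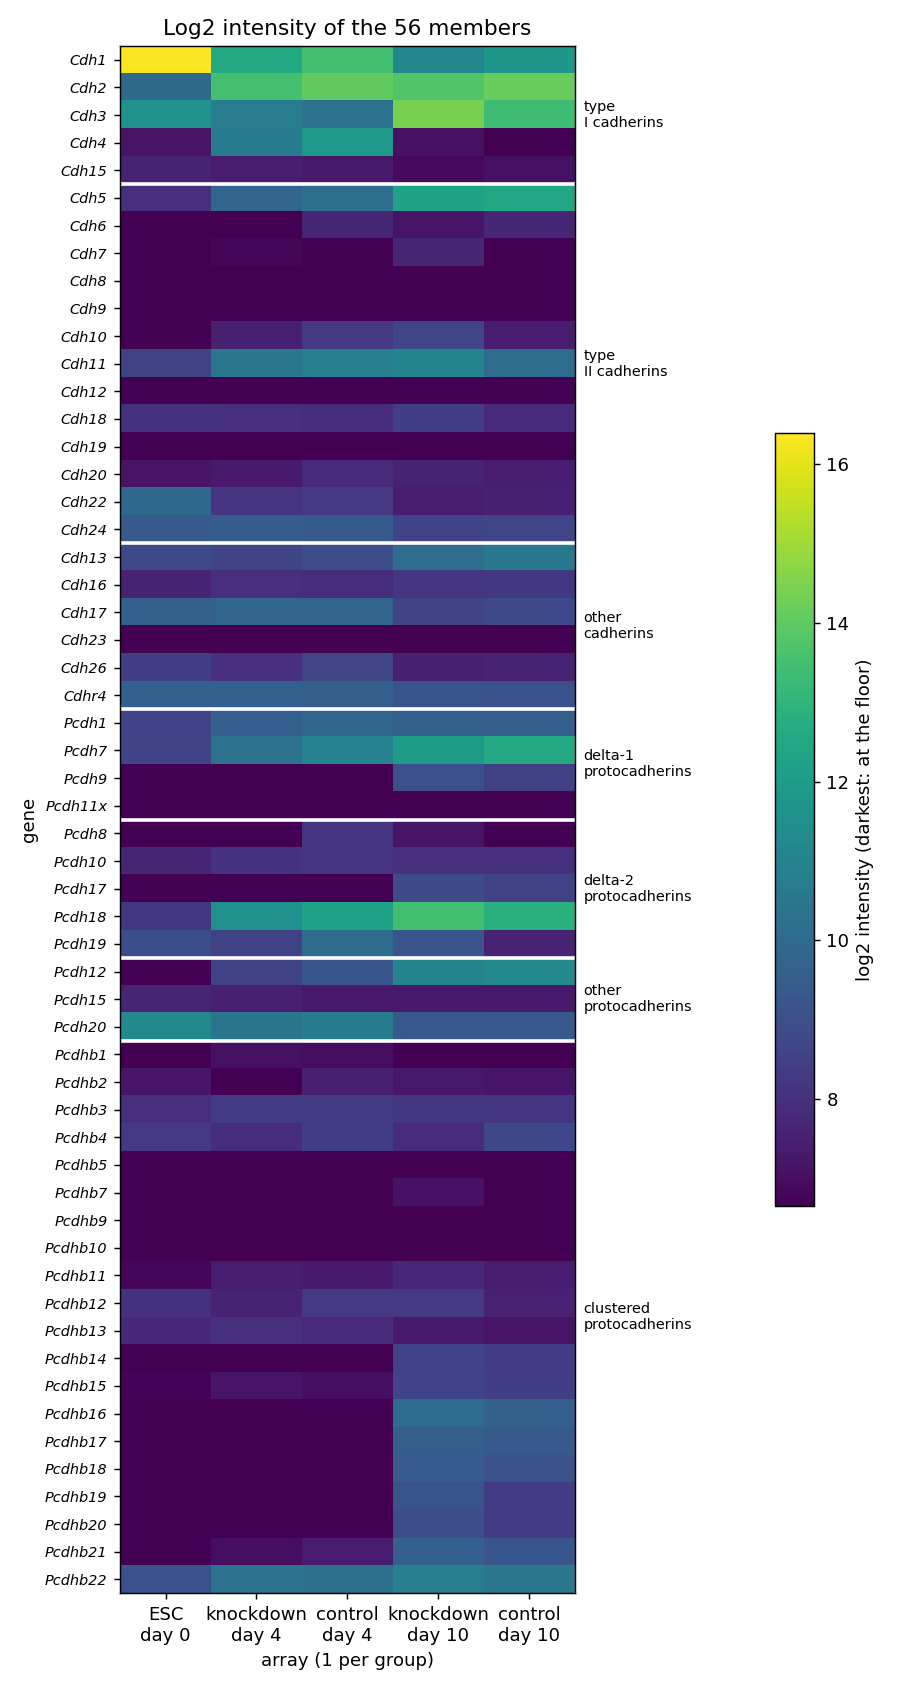
Log2 intensity of the 56 members (rows, grouped by subfamily) on the 5 arrays (columns), with the darkest colour at the floor of 6.64. Reading across a row, Cdh1 is brightest in ESCs at 16.35, Cdh4 is bright at day 4 alone, and Pcdhb14 to Pcdhb21 leave the dark end of the scale at day 10 in both lines.

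In control cells at day 4, 10 members (17.9%) were at least 2-fold higher than in ESCs, against 8.16% of all genes, and 3 (5.36%) were lower, against 8.87% of all genes. The 10 were Cdh2, Cdh4, Cdh5, Cdh11, Pcdh1, Pcdh7, Pcdh12, Pcdh18, Pcdh19 and Pcdhb22, and the 3 were Cdh1, Cdh3 and Cdh22. The median difference over the 56 members was 0.08, with 0.00 over all genes, and 29 members lay above 0 and 8 below it. Of the members off the floor that is 78.4% above 0, against 55.5% of measured genes. This tilt depended on the scaling, with 18 members above 0 and 22 below after 75th percentile scaling and 27 above and 29 below with the deposited values centred on all genes.

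From day 4 to day 10 of control cells, 8 members (14.3%) were at least 2-fold higher at day 10, against 12.3% of all genes, and 4 (7.14%) were lower, against 12.5% of all genes. The knockdown line over the same days gave 11 higher (19.6%, against 12.1% of all genes) and 4 lower (7.14%, against 11.6% of all genes). The higher shares in control cells and over all genes lay close together. These courses have no array in common. The 8 genes higher in control cells (Cdh3, Cdh5, Cdh13, Pcdh7, Pcdh12, Pcdhb16, Pcdhb17 and Pcdhb21) were all among the 11 of the knockdown line, 72.7% of that list, which added Pcdh18, Pcdhb18 and Pcdhb19. Cdh1, Cdh4 and Pcdh20 were lower in both, 75% of each list, with Cdh17 lower in the knockdown line and Pcdh19 in control cells. The balance of higher and lower calls depended on the scaling: in control cells it was 3 higher to 9 lower with the values as deposited and 6 to 6 with arrays scaled to a common 75th percentile, and in the knockdown line it was 8 to 6 as deposited and 11 to 2 with loess centring.

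Between knockdown and control cells few members passed the fold rule. At day 4, 0 members were higher (0.485% of all genes) and 2 of 56 were lower, Cdh4 and Pcdh19 (3.57%, against 0.885% of all genes). By day 10, 2 were higher, Cdh3 and Pcdh19 (3.57%, against 1.53% of all genes), and 0 were lower (2.22% of all genes). The median over the 56 members was 0.00 at day 4 and 0.04 at day 10, with 0.00 over all genes on both days. Of the 40 members above the floor in either array at day 4, 42.5% lay above 0, against 53.4% of measured genes, and of the 46 at day 10, 67.4% lay above 0, against 52.0% of measured genes. The excess at day 10 was absent with other scalings, with 21 members above 0 and 22 below after 75th percentile scaling and 24 above and 32 below with the deposited values centred on all genes. Both knockdown comparisons rest on 1 array a side, and a share built on 2 genes is not a result about the family.

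**Figure D2:**
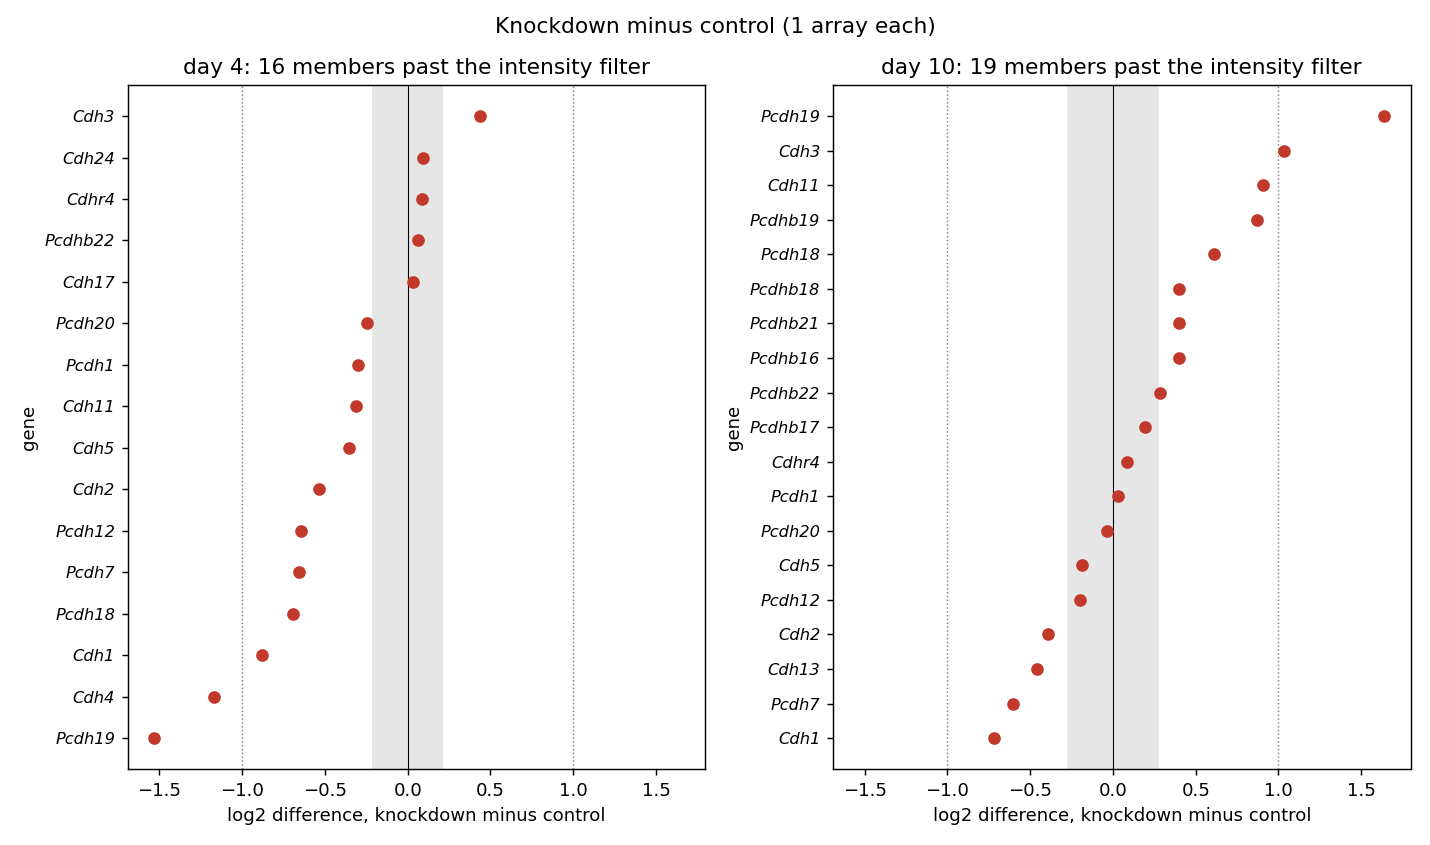
Log2 difference, knockdown minus control, of each member that reached the intensity filter in either array at day 4 (left, 16 members) and day 10 (right, 19 members). The grey band is 1 between-probe SD on either side of 0 and the dotted lines mark 2-fold, which Cdh4 (-1.17) and Pcdh19 (-1.53) pass on the left and Cdh3 (1.04) and Pcdh19 (1.64) on the right.

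The type I cadherins held the widest movements over time. Cdh1, which encodes E-cadherin, had a log2 intensity of 16.35 in ESCs, 12.57 in knockdown and 13.45 in control cells at day 4, and 11.11 in knockdown and 11.83 in control cells at day 10. It was thus lower at each later day in control cells, 7.46-fold between control day 4 and ESCs and a further 3.08-fold by day 10. In the knockdown line it was lower at day 10 than at day 4. Knockdown cells lay under control cells on both days, by 1.84-fold at day 4 and 1.65-fold at day 10, differences outside the between-probe SD but short of 2-fold. Cdh2, the gene of N-cadherin, ran the other way, with 10.01 in ESCs, 13.47 in knockdown and 14.01 in control cells at day 4, and 13.74 in knockdown and 14.13 in control cells at day 10. Its increase, 15.9-fold in control day 4 cells over ESCs, lay before day 4, and the level at day 10 was within 1.20-fold of day 4 in both lines.

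Epithelial markers moved beside Cdh1. The 11 listed genes summed to 92874 in ESCs, 21844 in knockdown and 35951 in control cells at day 4, and 18501 in knockdown and 28509 in control cells at day 10, with Krt8 at the floor throughout. In knockdown cells 3 of the 11 were lower than in control cells at day 4 and 4 at day 10, which on both days included the tight junction genes Cldn6 (by -1.77 at day 4 and -2.87 at day 10) and Cldn7 (-1.09 at day 4 and -1.74 at day 10). The third at day 4 was the polarity gene Crb3 (-1.24), and the others at day 10 were the adhesion gene Epcam (-1.48) and the splicing regulator Esrp1 (-1.06). None of the 11 was higher in knockdown than in control cells by the 2-fold rule on either day. Their part in the Cdh1 difference was not tested.

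Cdh3, the gene of P-cadherin, lies next to Cdh1 on chromosome 8 and followed another course. Its level was 11.65 in ESCs, 10.72 in knockdown and 10.29 in control cells at day 4, and 14.39 in knockdown and 13.35 in control cells at day 10. So in control cells it was 2.58-fold lower at day 4 than in ESCs. By day 10 it was 12.7-fold higher than at day 4 in knockdown and 8.38-fold higher in control cells, while Cdh1 was lower. At day 10 knockdown cells were 2.05-fold above control cells, just past the 2-fold rule. That call was lost with the mean of its 3 probes (0.86 on the log2 scale) and with scaling to the 75th percentile (0.9997, just under 2-fold). The other 2 probes gave the same direction at day 10, 11.40 in knockdown and 10.51 in control cells for one and 9.75 in knockdown and 9.10 in control cells for the other. Epicardial markers differed in the same direction between these arrays, with 7 of 8 higher in knockdown cells, Sema3d by 2.72, Wt1 by 2.61, Upk3b by 2.39 and Aldh1a2 by 2.38. Their part in the Cdh3 difference was not tested.

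Cdh4, which encodes R-cadherin, was highest at day 4 in control cells, and higher at day 4 than at day 10 in the knockdown line. It stood at 7.17 in ESCs, 10.697 in knockdown and 11.87 in control cells at day 4, and 7.06 in knockdown cells at day 10, where control cells were at the floor. Control cells at day 4 exceeded ESCs by 26.0-fold, and by day 10 the level had dropped at least 37.4-fold in control cells and 12.4-fold in the knockdown line. At day 4 knockdown cells were 2.25-fold lower than control cells. Cdh15, the gene of M-cadherin in muscle precursors, stayed between 6.88 and 7.59 on the 5 arrays, under the filter.

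**Figure D3:**
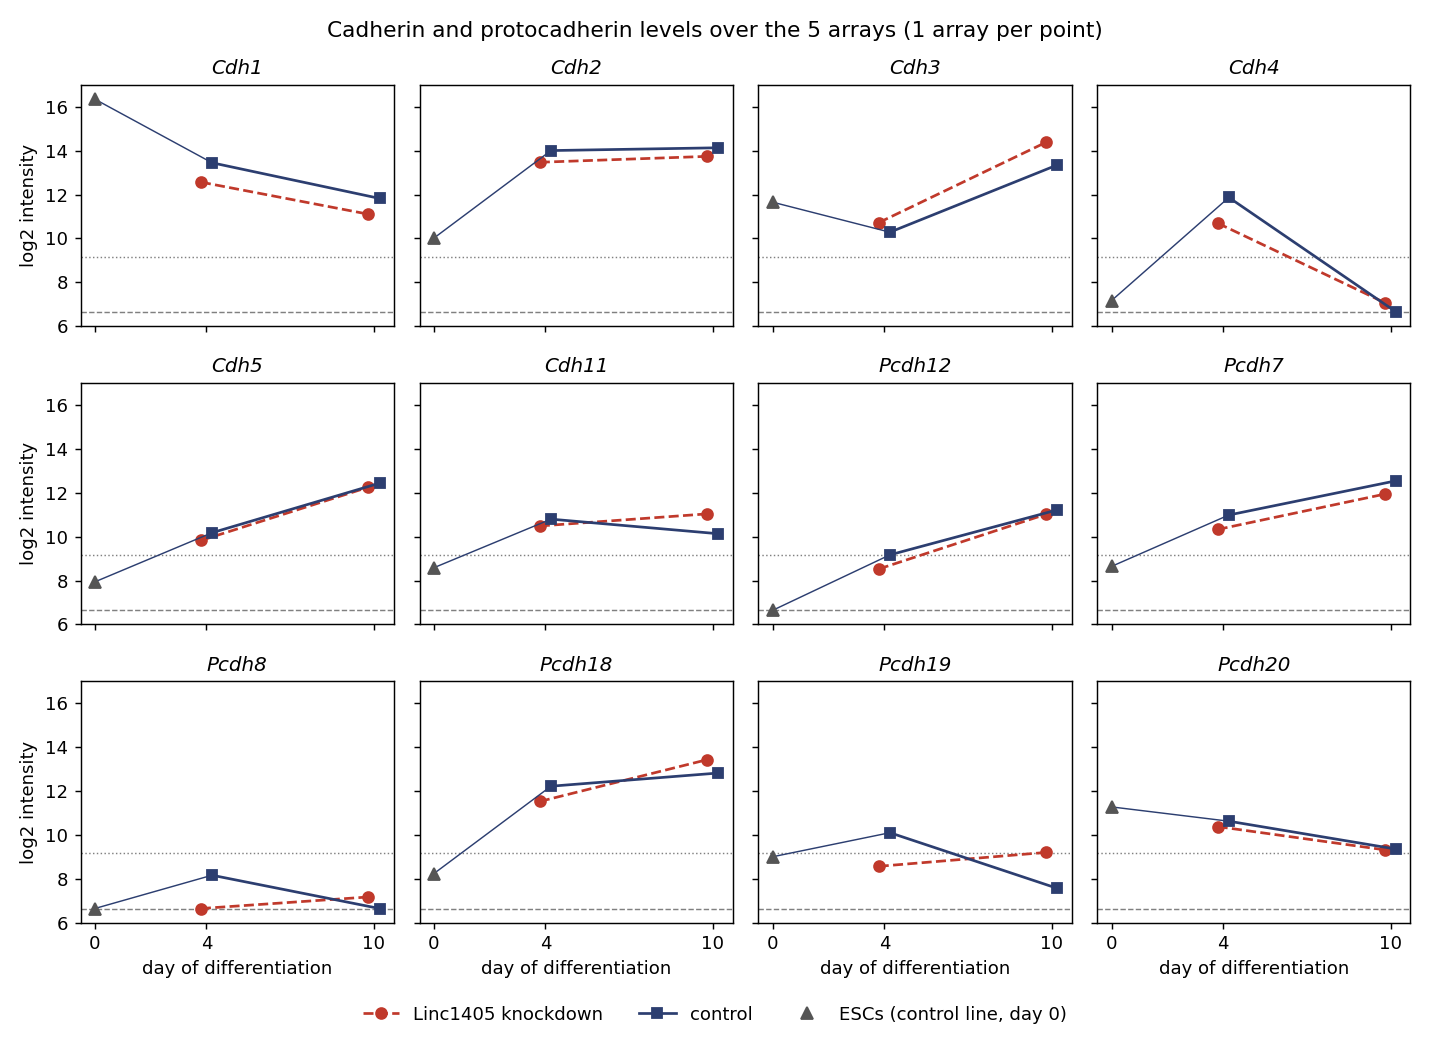
Log2 intensity by day of differentiation for 12 members, with ESCs as triangles, knockdown cells as circles (dashed line, drawn slightly to the left) and control cells as squares, 1 array per point, the floor of 6.64 dashed and the filter of 9.16 dotted. Cdh1 starts at 16.35 and ends lower, Cdh2 starts at 10.01 and ends higher, Cdh4 peaks at day 4, and the lines of Pcdh18 and Pcdh19 cross between day 4 and day 10.

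Among type II cadherins, Cdh5, Cdh11 and Cdh22 passed the fold rule over time. Cdh5 encodes VE-cadherin, the adhesion molecule of endothelial junctions. Its level was 7.94 in ESCs, 9.83 in knockdown and 10.18 in control cells at day 4, and 12.25 in knockdown and 12.44 in control cells at day 10. It increased at each step in control cells, and much alike in both lines from day 4 to day 10. Fold changes were 4.73 for control day 4 over ESCs, and by day 10 over day 4 they were 5.38 in knockdown and 4.78 in control cells. Knockdown minus control was -0.35 at day 4 and -0.18 at day 10, the second value inside the between-probe SD.

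The 10 endothelial markers, none at the floor on any array, summed to 16585 in ESCs, 24355 in knockdown and 35395 in control cells at day 4, and 91881 in knockdown and 85079 in control cells at day 10. The rise of the sum at day 4 was that of Kdr, a VEGF receptor, at 8.65 in ESCs, 13.49 in knockdown and 14.41 in control cells at day 4, and 13.35 in knockdown and 13.26 in control cells at day 10. Without Kdr the sums were 16183 in ESCs, 12849 in knockdown and 13669 in control cells at day 4, and 81449 in knockdown and 75269 in control cells at day 10. In control day 4 cells against ESCs, 3 of the 10 were higher and 2 lower, Pecam1 by -1.66 and Eng by -1.30. Between day 4 and day 10, 8 of 10 were higher in the knockdown line and 9 of 10 in control cells, where Emcn differed by 5.51, Cldn5 by 2.52, Robo4 by 2.29 and Tek by 2.24, and where Kdr was lower by -1.15. Pcdh12, a protocadherin of endothelial cells, was at the floor in ESCs, at 8.53 in knockdown and 9.17 in control cells at day 4, and at 11.03 in knockdown and 11.22 in control cells at day 10. Like Cdh5 it was higher at every step, by at least 5.77-fold for control day 4 over ESCs and then 5.65-fold in knockdown and 4.15-fold in control cells. The part of the endothelial markers in these levels was not tested.

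Cdh11, also called OB-cadherin and known from mesenchyme and bone-forming cells, had 8.58 in ESCs, 10.49 in knockdown and 10.80 in control cells at day 4, and 11.04 in knockdown and 10.13 in control cells at day 10. The 4.65-fold step between ESCs and control day 4 passed the rule. At day 10 knockdown cells lay 1.87-fold above control cells, outside the between-probe SD and short of 2-fold. Cdh22 declined early, with 9.96 in ESCs, 8.13 in knockdown and 8.27 in control cells at day 4, and 7.42 in knockdown and 7.49 in control cells at day 10. It was 3.21-fold lower in control day 4 cells than in ESCs. Its other probe, fainter on the mean of the arrays but brighter in ESCs, gave the same direction and a wider difference. It read 10.51 in ESCs and 7.61 in control day 4 cells, a log2 difference of -2.90.

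The remaining type II genes gave little. Cdh24 ranged from 8.61 to 9.51 with no 2-fold step, and Cdh18 (7.82 to 8.41) and Cdh20 (7.15 to 7.85) stayed under the filter. Cdh10 was at the floor in ESCs, at 7.50 in knockdown and 8.27 in control cells at day 4, and at 8.68 in knockdown and 7.41 in control cells at day 10. Its 2.41-fold excess in knockdown cells at day 10 lay wholly under the filter and was not counted, as was that of Cdh7, at 7.69 in knockdown cells against the floor in control cells. Cdh6 peaked at 7.69, and Cdh8, Cdh9, Cdh12 and Cdh19 were at the floor throughout. In the gene table of assembly GRCm38.p6, Cdh8, Cdh11 and Cdh5 are consecutive protein-coding genes on chromosome 8 and Cdh6, Cdh9, Cdh10 and Cdh12 on chromosome 15. In the first run Cdh8, at the floor throughout, sits beside Cdh11 and Cdh5, and in the second all 4 genes were under the filter on every array.

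Of the other cadherins, Cdh13 and Cdh17 passed the rule. Cdh13, or T-cadherin, is anchored to the membrane by a lipid and has no cytoplasmic tail. It kept a level of 8.63 to 8.93 up to day 4 and had 10.13 in knockdown and 10.59 in control cells at day 10, which is 2.83-fold over day 4 in knockdown and 3.15-fold over day 4 in control cells. Cdh17, the liver and intestine cadherin, had 9.63 in ESCs, 9.77 in knockdown and 9.74 in control cells at day 4, and 8.64 in knockdown and 8.82 in control cells at day 10. Its 2 declines were alike in size, 2.19-fold in the knockdown line and 1.90-fold in control cells, and fell on either side of the threshold. The level of Cdh17 at day 10 differed little between the lines, while 7 of 8 liver-type markers were lower in knockdown cells. The probe named Cdh29 on the array, which the gene table names Cdhr4, stayed between 9.09 and 9.68 by its brighter probe. A second probe gave another course, with 6.89 in ESCs, 6.95 in knockdown and 6.78 in control cells at day 4, and 9.99 in knockdown and 9.23 in control cells at day 10, a step of 3.04 in knockdown and 2.45 in control cells that reached the filter. Cdh16, known from kidney, and Cdh26 stayed under the filter, and Cdh23, a cadherin of inner ear hair cells, was at the floor on every array.

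Protocadherins of the delta-1 and delta-2 groups share short conserved motifs in their cytoplasmic tails, and several are known from patterned expression in mesoderm and brain. Pcdh7 (delta-1) and Pcdh8, Pcdh18 and Pcdh19 (delta-2) were the non-clustered protocadherins whose knockdown minus control difference lay beyond the between-probe SD on both days. They were chosen after their values were seen. For Pcdh8 that SD is no guide, as its values lay under the filter and its differences are bounds. The 3 delta-2 genes lay under control cells at day 4 and over them at day 10, and Pcdh7 lay under them on both days. With the values as deposited, Pcdh8 read 88 in knockdown and 6 in control cells at day 10. Both fell to the floor, so Pcdh8 did not cross over in that setting. Their RefSeq promoter windows, running 250 bases before to 50 after the gene start in GRCm38.p6, are shown so that the genes that crossed over can be set beside the one that did not. The windows are chr5:57717831-57718130 (plus strand) for Pcdh7, chr14:79771263-79771562 (minus strand) for Pcdh8, chr3:49757267-49757566 (minus strand) for Pcdh18 and chrX:133688944-133689243 (minus strand) for Pcdh19. Capitals mark matches, on either strand, to the E-box CACCTG bound by Snail and Zeb factors or to the CCAAT box, with that box drawn out to AGCCAAT where it matched.
Pcdh7: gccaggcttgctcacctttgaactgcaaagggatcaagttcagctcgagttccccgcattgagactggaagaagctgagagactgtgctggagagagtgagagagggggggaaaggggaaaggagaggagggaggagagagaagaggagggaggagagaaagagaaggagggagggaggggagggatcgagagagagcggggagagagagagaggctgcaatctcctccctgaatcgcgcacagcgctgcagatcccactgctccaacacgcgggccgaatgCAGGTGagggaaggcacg
Pcdh8: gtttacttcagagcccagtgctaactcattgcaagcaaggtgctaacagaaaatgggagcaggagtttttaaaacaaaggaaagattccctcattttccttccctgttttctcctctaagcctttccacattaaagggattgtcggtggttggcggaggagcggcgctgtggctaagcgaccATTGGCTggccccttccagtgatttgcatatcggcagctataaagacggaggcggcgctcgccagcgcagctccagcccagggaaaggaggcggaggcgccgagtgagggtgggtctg
Pcdh18: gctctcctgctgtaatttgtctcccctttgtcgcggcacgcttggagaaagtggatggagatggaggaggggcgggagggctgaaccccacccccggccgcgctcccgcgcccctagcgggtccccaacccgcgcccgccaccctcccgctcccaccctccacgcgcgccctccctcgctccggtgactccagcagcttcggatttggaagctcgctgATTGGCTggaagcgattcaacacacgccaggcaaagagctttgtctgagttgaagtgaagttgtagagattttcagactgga
Pcdh19: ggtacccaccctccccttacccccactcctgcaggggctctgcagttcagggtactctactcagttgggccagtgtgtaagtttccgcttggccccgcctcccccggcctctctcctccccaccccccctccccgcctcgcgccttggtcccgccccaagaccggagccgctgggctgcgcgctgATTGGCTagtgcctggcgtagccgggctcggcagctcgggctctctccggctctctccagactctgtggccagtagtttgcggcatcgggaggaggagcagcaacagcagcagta
The 3 delta-2 windows each hold 1 CCAAT box, which appears as its complement, and in all 3 the match extends to AGCCAAT, while the Pcdh7 window holds none and has 1 E-box. The longer form does not set the genes that crossed over apart: it is also in the windows of the delta-2 gene Pcdh17, whose knockdown minus control difference was 0.00 at day 4 (both at the floor) and 0.29 at day 10, and of Cdh9, Cdh18 and Cdh20. None of the windows printed above held the T-box core AGGTGT on either strand.

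These letters, apart from the longer CCAAT form, are common in promoters. Among 32851 promoter windows of the same length, the E-box occurred on either strand in 20.2%, the T-box core in 13.7%, the CCAAT box in 37.4% and its longer form in 7.86%. For 23 members with an entry, 26 windows held them in 23.1% (6 windows), 3.85% (1 window), 65.4% (17 windows) and 26.9% (7 windows), in that order of motifs. Cdh7 and Pcdh9 had more than 1 window each, so these are shares of windows and not of genes. Members without an entry included Cdh1 to Cdh5, Cdh11 and the beta cluster. The long CCAAT form overlaps the short one by construction, and it was searched after the sequences had been read. Windows of Pcdh7, Pcdh8, Pcdh18 and Pcdh19 had a GC content of 59.3, 54.3, 63.0 and 67.7% and 11, 14, 23 and 18 CpG sites, against medians of 52.7% and 7 sites over all windows. A match is a description of the sequence and not a site of binding.

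Pcdh19, an X-linked gene whose human counterpart is mutated in a form of epilepsy, was the member that differed by 2-fold between the lines on both days. Its level was 9.004 in ESCs, 8.57 in knockdown and 10.10 in control cells at day 4, and 9.20 in knockdown and 7.56 in control cells at day 10. Knockdown cells were thus 2.89-fold lower at day 4 and 3.11-fold higher at day 10. Control cells went through a peak, 2.14-fold over ESCs at day 4 and 5.80-fold lower by day 10, and in the knockdown line the day 10 level was 1.55-fold above day 4. The knockdown value at day 10 stands just over the filter of 9.16. With arrays scaled to the 75th percentile, and also with the values as deposited, the brighter array fell under its filter and the call at day 10 ended, though the log2 difference was then 1.69 and 2.21, against 1.64.

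Pcdh18 had 8.23 in ESCs, 11.53 in knockdown and 12.22 in control cells at day 4, and 13.43 in knockdown and 12.82 in control cells at day 10. Its 15.9-fold excess in control day 4 cells over ESCs was among the widest steps in that comparison, beside Cdh4 and Cdh2. Knockdown minus control was -0.69 at day 4 and 0.61 at day 10, each beyond the between-probe SD and short of 2-fold. From day 4 to day 10 it was 3.75-fold higher in the knockdown line, which passed the rule, and 1.52-fold higher in control cells, which did not. The difference between these 2 courses was not tested.

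Pcdh8, or paraxial protocadherin, is expressed in the mouse presomitic mesoderm as somites form. It was above the floor in control cells at day 4, at 8.16, and in knockdown cells at day 10, at 7.17, and at the floor on the other 3 arrays. The knockdown value at day 4 was at least 2.86-fold lower than control, but both values lie under the filter. The 8 presomitic and paraxial markers summed to 9011 in knockdown and 12351 in control cells at day 4. Of these, 3 were lower in knockdown cells, Dll1 by -1.84, Dll3 by -1.20 and Mesp2 by -1.12, and Tbx6 and Meox1 by less than 2-fold. Msgn1 (0.07), Tcf15 (0.00) and Hes7 (0.00) were not lower. The list did not follow Pcdh8 from ESCs, where Pcdh8 was at the floor and the sum over all 8 was higher than at day 4. Tcf15 was at 15.19 in ESCs. Without it the sums were 10009 in ESCs, and 6642 in knockdown and 9990 in control cells at day 4. At day 10 the sums were 8474 in knockdown and 5452 in control cells, with Dll3 at the floor in both. Of the 8, 1 was higher at day 10, Tcf15 by 1.33, and the median was 0.01. Without Tcf15 the day 10 sums were 4203 in knockdown and 3755 in control cells. Their part in the levels of Pcdh8, Pcdh18 and Pcdh19 was not tested.

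The other delta-2 genes stayed under the filter on every probe. The 5 probes of Pcdh10 disagreed. The brightest stayed between 7.67 and 8.09 on all arrays with no 2-fold step. The next read the floor in ESCs, the floor in knockdown and 6.73 in control cells at day 4, and 8.59 in knockdown and 7.76 in control cells at day 10, a step of at least 1.95 in knockdown and of 1.04 in control cells on the log2 scale. The third had a step of at least 1.16 in knockdown and 0.70 in control cells, and the other two lay within 0.51 of the floor. Pcdh17 was at the floor until day 4 and reached 8.88 in knockdown and 8.59 in control cells at day 10. Over the 5 delta-2 genes, knockdown minus control was below 0 for 4 and above it for 0 at day 4 (median -0.69), and above 0 for 5 of 5 at day 10 (median 0.53). The direction at day 4 held under every scaling relative to all genes, while at day 10 it was 3 above and 1 below with the 75th percentile scaling and 3 above and 2 below with the deposited values centred on all genes.

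Pcdh7, known in Xenopus as NF-protocadherin, had 8.65 in ESCs, 10.33 in knockdown and 10.99 in control cells at day 4, and 11.95 in knockdown and 12.55 in control cells at day 10. By this probe it was higher at each step, 5.07-fold for control day 4 over ESCs and then 3.06-fold in knockdown and 2.95-fold in control cells. A second probe of the gene was weaker on the mean of the arrays but brighter at day 4. It gave 6.72 in ESCs, 11.22 in knockdown and 11.62 in control cells at day 4, and 10.45 in knockdown and 10.79 in control cells at day 10. The probes thus agree on the first step and disagree in sign on the second. With the mean of both probes the second step was 0.42 in knockdown and 0.37 in control cells and was no longer called. Both probes placed knockdown under control on both days, by -0.66 at day 4 and -0.61 at day 10 for the first one.

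Pcdh1 was 2.43-fold higher in control day 4 cells (9.88) than in ESCs (8.59) and kept to 9.58 to 9.62 on the other arrays. Pcdh9 was at the floor until day 4 and reached 9.04 in knockdown and 8.51 in control cells at day 10, at least 5.26-fold over day 4 in knockdown and 3.64-fold in control cells, all below the filter. Of its other probes, 1 gave much the same values, 9.10 in knockdown and 8.34 in control cells, and 1 was at the floor throughout. Pcdh20 declined over the course, with 11.28 in ESCs, 10.38 in knockdown and 10.63 in control cells at day 4, and 9.32 in knockdown and 9.35 in control cells at day 10. The lines were alike, 2.09-fold lower at day 10 than at day 4 in knockdown and 2.42-fold lower in control cells. A second probe of Pcdh20 stayed between 6.69 and 7.06. Its neighbour on chromosome 14 is Pcdh9, which moved the other way over those days. Pcdh15, a partner of Cdh23 in inner ear hair cells, ranged from 7.30 to 7.65 by 1 probe and was at the floor by the other 3.

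The clustered protocadherins were represented by 20 genes of the beta cluster on chromosome 18. Pcdhb6 and Pcdhb8 are unnamed here, and no alpha or gamma gene was among the named probes. Each beta gene is a single exon with its own promoter, and the genes are near copies of each other. Cross-hybridisation between them was not tested, since probe sequences were not used here, and older beta gene names overlap as synonyms. At day 10 a run of consecutive genes, Pcdhb14 to Pcdhb21, stood apart from the genes before it, in both lines. The ends of this run were chosen after seeing the values, so it is a description.

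By the brightest probe of each gene, 1 of these 8 was above the floor in ESCs, and at day 4 there were 3 in knockdown and 2 in control cells, none near the filter. At day 10 all 8 were above the floor in both lines, 5 past the filter in knockdown and 3 in control cells. Pcdhb16 has a pair of probes. The one brighter at day 10 was at the floor on every array before and reached 10.04 in knockdown and 9.65 in control cells. The other read 7.68 in ESCs, the floor in knockdown and 6.75 in control cells at day 4, and 9.35 in knockdown and 8.96 in control cells at day 10, so that day 10 minus day 4 was at least 2.71 in knockdown and 2.21 in control cells on the log2 scale. Pcdhb17 reached 9.59 in knockdown and 9.40 in control cells, at least 7.70-fold over day 4 in knockdown and 6.75-fold in control cells. Its single probe was at the floor on every array before day 10. Pcdhb18 had 9.46 in knockdown and 9.06 in control cells, and Pcdhb19 had 9.19 in knockdown and 8.32 in control cells, each with the floor at day 4 in both lines. Pcdhb21 stood at the floor in ESCs, at 7.02 in knockdown and 7.42 in control cells at day 4, and at 9.65 in knockdown and 9.25 in control cells at day 10. The day 10 levels of Pcdhb14 (8.62 in knockdown and 8.32 in control cells), Pcdhb15 (8.60 in knockdown and 8.45 in control cells) and Pcdhb20 (8.97 in knockdown and 8.32 in control cells) were under the filter. Day 10 over day 4 ran from 1.40 to 3.40 on the log2 scale in knockdown (median 2.59) and from 1.42 to 3.004 in control cells (median 1.76) for the 8 genes, each by its brightest probe and counted at its bound where that probe was at the floor.

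Pcdhb22, next in the cluster, had another course. It was already detected in ESCs at 9.10 and had 10.29 in knockdown and 10.23 in control cells at day 4, and 10.81 in knockdown and 10.53 in control cells at day 10. Its 2.19-fold step lay between ESCs and control day 4, with no 2-fold step afterwards. The 11 measured genes ahead of the run, Pcdhb1 to Pcdhb13, had day 10 minus day 4 differences of -0.66 to 0.68 in knockdown and -0.75 to 0.29 in control cells, and none reached the filter on any array. In both lines the signs for the run of 8 were the same with every floor and scaling tried, the lowest difference being 0.42 in control cells with the values as deposited, where all genes had a median of -0.72.

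**Figure D4:**
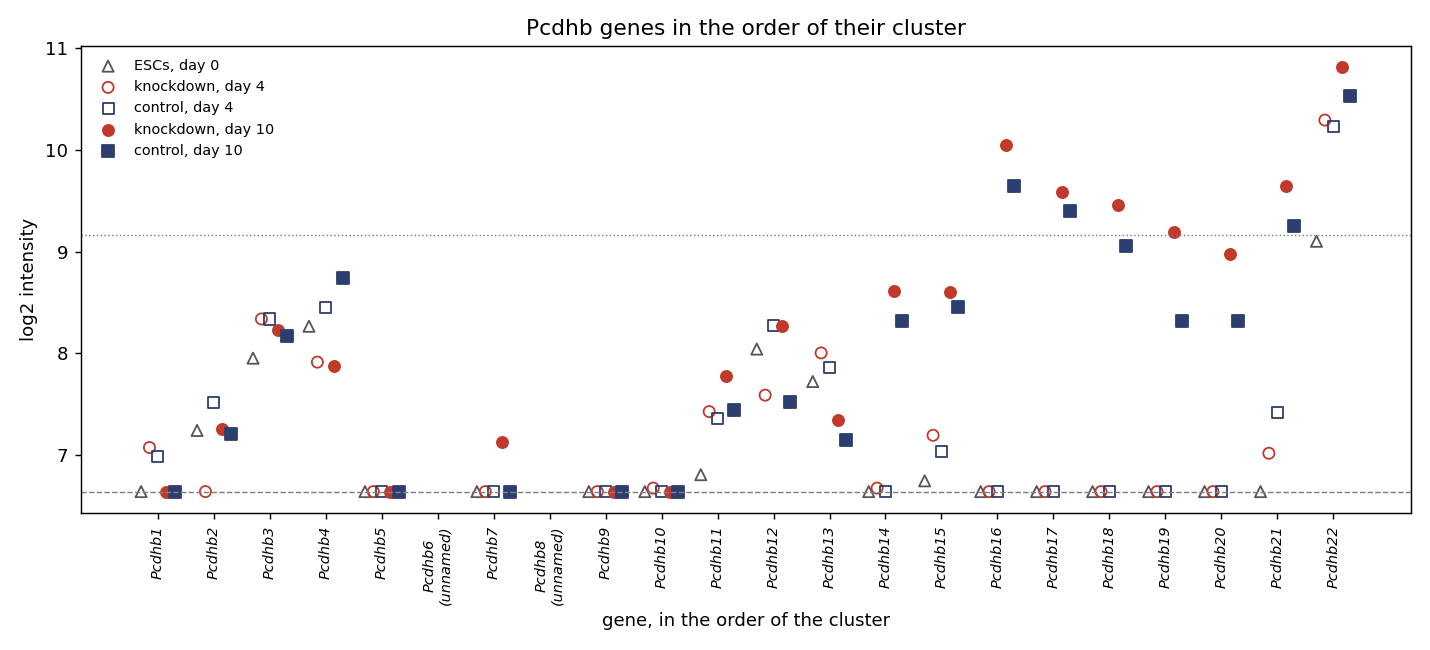
Log2 intensity of the beta-cluster genes, in their order along the cluster (horizontal axis), with open symbols for ESCs and day 4 and filled symbols for day 10, red circles for knockdown and blue squares for control cells, and dashed and dotted lines at the floor and the filter. The filled symbols of Pcdhb14 to Pcdhb21 stand between 8.32 and 10.04 over open symbols at or near the floor of 6.64, and each red one lies above its blue neighbour.

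Knockdown cells were above control cells in all 8 of the run at day 10, by 0.15 to 0.87 (median 0.40), with the greatest difference in Pcdhb19. This sign held for all 8 under each floor and scaling tried. None of the 8 reached 2-fold, and the differences of Pcdhb14 (0.29), Pcdhb15 (0.15) and Pcdhb17 (0.19) were near or within the between-probe SD of 0.27. That SD came from probes that reached the filter, which Pcdhb14, Pcdhb15 and Pcdhb20 did not. Over the whole cluster 15 of the 16 genes above the floor lay above 0 and 1 below, Pcdhb4 at -0.87, with 11 above and 4 below after 75th percentile scaling. As these probes may share targets, they are not independent measurements. Of 9 neural and neural crest markers none differed by 2-fold between the lines at day 10, and the list summed to 60871 in knockdown and 34116 in control cells, Ncam1 being the main source at 15.77 in knockdown and 14.84 in control cells. Foxd3 was at the floor in both lines at that day, and so was Pax6 in knockdown cells. Their part in the beta-cluster levels was not tested.

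The genes known to act on clustered protocadherin promoters, among them the insulator protein CTCF, cohesin and the silencing factors Smchd1 and Dnmt3b, were measured in full (11 of 11). None differed by 2-fold between knockdown and control cells on either day. From day 4 to day 10, 4 were lower and 0 higher in the knockdown line (median -0.86), and 4 were lower and 0 higher in control cells (median -0.78), with 0.00 over all genes. Dnmt3b had 14.90 in ESCs, 15.02 in knockdown and 15.48 in control cells at day 4, and 11.68 in knockdown and 11.50 in control cells at day 10, the widest difference in the list. In control cells Ctcf differed by -1.42, Smchd1 by -1.24 and Stag1 by -1.10 over these days.

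Catenins and other cytoplasmic partners of the cadherins gave 17 measured genes of 18 listed. Ctnnb1, the gene of beta-catenin, was at 15.71 in ESCs, 15.71 in knockdown and 15.83 in control cells at day 4, and 15.95 in knockdown and 16.13 in control cells at day 10. Ctnna1, the gene of alpha-catenin, which links beta-catenin to actin, ranged from 15.92 to 16.46. Of these partners 0 were higher and 0 lower in knockdown than in control cells at day 4 (median 0.04), and at day 10 there were 0 higher and 1 lower (median -0.11). That 1 was Pkp2, a plakophilin of the heart's desmosomes, at 12.29 in knockdown and 13.91 in control cells. Between ESCs and control day 4, 0 were higher and 5 lower, including the actin-binding Lima1 (-3.62), Pkp3 (-3.48), Pkp2 (-1.70) and Arvcf (-1.44). By day 10 of control cells 4 were higher, Lima1 by 2.54, Pkp2 by 1.61, Jup by 1.53 and Arvcf by 1.43, and Pkp4 was lower by -2.02.

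Desmosomal genes, which join heart muscle cells mechanically, gave 7 measured members of 10 listed. Dsc2 had 9.07 in ESCs, 10.72 in knockdown and 10.84 in control cells at day 4, and 13.52 in knockdown and 11.60 in control cells at day 10, and was the 1 gene of the list that differed between the lines, by 1.92 at day 10. Dsp, the gene of desmoplakin, was 2.71 higher in control day 4 cells than in ESCs and within 0.20 of control in knockdown cells on both days.

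Distant relatives of the family were also measured, 18 of 19 listed genes, 1 of them the member Cdhr4. Knockdown and control cells differed at day 4 in 0 genes and at day 10 in Clstn2 alone by the 2-fold rule, at 9.26 in knockdown and 10.51 in control cells. From day 4 to day 10 of control cells 3 were higher, the large cadherin Fat4 by 3.90, Clstn2 by 2.92 and the Fat4 ligand Dchs1 by 1.03, and 3 were lower, among them Clstn3 (-1.72) and Celsr3 (-1.62). Fat4 was at 12.31 in both lines at day 10. The shedding and turnover list gave 8 measured of 9, with 0 differences between the lines on either day, and Mmp3 differed by -4.72 on the log2 scale in control day 4 cells minus ESCs.

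Transcription factors that repress Cdh1 were measured in full (10 of 10). Snai1 was at 13.65 in ESCs, 15.03 in knockdown and 15.06 in control cells at day 4, and 13.45 in knockdown and 13.63 in control cells at day 10. It peaked at day 4 in control cells and was lower at day 10 than at day 4 in both lines. Snai2 had 10.43 in ESCs, 13.38 in knockdown and 12.52 in control cells at day 4, and 14.28 in knockdown and 15.27 in control cells at day 10. Zeb1 had 12.10 in ESCs, 12.44 in knockdown and 12.60 in control cells at day 4, and 14.57 in knockdown and 14.95 in control cells at day 10. Twist1 followed the same upward course from 9.36 in ESCs, with 12.10 in knockdown and 11.84 in control cells at day 4 and 12.66 in knockdown and 13.15 in control cells at day 10. Between ESCs and control day 4, when Cdh1 was 7.46-fold lower, 5 of the 10 were higher and 1 lower (median 0.97).

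Zeb2 stood apart from these. Its probe read 7.01 in ESCs, the floor in knockdown and 11.04 in control cells at day 4, and 11.83 in knockdown and 11.43 in control cells at day 10, so knockdown minus control at day 4 was -4.40 or less on the log2 scale. In the same pair of arrays Twist2 was higher by 1.37, and the list as a whole had 1 gene higher and 1 lower (median -0.04). At day 10 it had 0 higher and 1 lower, Snai3 by -1.26. Cdh1 was lower in knockdown than in control cells at day 4, by -0.88, on the array where the Zeb2 probe read the floor. The part of Zeb2 and the other listed factors in the Cdh1 level was not tested.

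Fibroblast markers, which feeder cells also carry, were read on the ESC array. The 9 fibroblast markers summed to 21213 in control day 4 cells against 64749 in ESCs, and Lum and Fap, above the floor in ESCs, were at it at day 4. The mesenchymal member Cdh11 was higher in control day 4 cells (10.80) than in ESCs (8.58). At day 10, when the markers summed to 303326 in knockdown and 276980 in control cells, Cdh11 was at 11.04 in knockdown and 10.13 in control cells. Their part in the levels of Cdh11 was not tested. Muscle cadherin Cdh15 stayed under the filter, and of the 3 skeletal muscle markers with a named probe none passed the rule in any comparison, with sums of 365 to 635.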

How the data were processed

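The deposited values are probe intensities on a linear scale from single-colour Cy5 arrays, 1 per group, made with Agilent Feature Extraction 10.7.1.1 per the submitters' processing notes. Deposited intensities at or below 0 show that a background had been subtracted, and array medians of 344 to 745 that arrays were not normalised to each other. The knockdown array at day 10 had 1050 probes at or below 0, against 0 to 38 on each other array. The part of this in the faint knockdown values at day 10 was not tested. The number of arrays limits the precision. No other step by the authors is recorded in the labels.

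Intensities were quantile normalised over the 5 arrays, floored at 100 (19.0 to 19.1% of probes on each array) and converted to log2 values from the deposited ones, with Python 3.11.15, numpy 2.4.6 and pandas 2.3.3. Of 26423 probes, 20377 carried a gene symbol and 6046 were unnamed here. Symbols came from the platform annotation and were updated through the gene table of GRCm38.p6 (18213 current, 2126 by synonym, 38 kept), which also gave neighbours. A probe named Cdh29 on the array was kept as a member under its present name. Each gene was represented by its brightest probe. Where an array was at the floor, its difference is a bound. Detection calls were not used here.

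Calls needed the brighter array at or above the 50th percentile and a 2-fold difference. The counting rule was run on simulated arrays with 4-fold changes planted in genes well above the filter. That does not check calls near 2-fold, near the filter or with an array at the floor. The between-probe SD is the SD of how far the log2 differences of probes of the same gene lay apart, scaled to a single probe. It used pairs of probes that reached the filter and lay above the floor on both arrays. Members were named with all values where they passed that rule in any comparison or were among 10 preset anchors, and up to 4 genes were named per partner or marker list. Cdh6, Cdh7, Pcdh9, Pcdh17, Pcdhb4, Pcdhb14, Pcdhb15 and Pcdhb20 were described outside that rule, and Cdh10 too, after their values were seen. Members and lists were chosen with earlier results of these data known. Alternatives were the deposited values, 75th percentile scaling, loess centring (statsmodels 0.14.6), floors of 50 and 200, no filter, a 75th percentile filter, a 4-fold threshold and the mean of all probes. Deposited values centred on the median of all genes were added after seeing the data.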

Additional observations from a re-analysis of the deposited data

Results flagged for a closer look

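Pcdh19 was lower in knockdown than in control cells at day 4 (log2 difference -1.53) and higher at day 10 (1.64), so the 2 days gave opposite signs. Each value rests on 1 array a side and the difference between the days was not tested.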

How the results depend on the processing

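No paired analysis was possible because each group had 1 array. Of 308 recomputed differences of called members, 0 changed sign, 284 stayed within the between-probe SD of the reported value and 24 moved further. These were 44 called differences under 7 settings. Each was at least 2-fold by selection, and some settings leave bright genes or genes with 1 probe unchanged, so this is a weak check. Counts of members moved more. A 4-fold threshold left 0 of 2 lower in knockdown at day 4, 0 of 2 higher in knockdown at day 10, 1 of 3 lower at control day 4 against ESCs, 5 of 8 higher and 2 of 4 lower at control day 10 against day 4, and 1 of 4 lower in the knockdown course. A 75th percentile filter gave, for the same counts, 0, 1, 1, 3, 1 and 1, with 2 of 10 higher at control day 4 and 4 of 11 higher in the knockdown course. Without a filter 4 were higher in knockdown at day 10, 15 in the control course and 17 in the knockdown course. The mean of all probes gave 1 higher in knockdown at day 10 and 75th percentile scaling 0, and loess centring gave 2 lower in the knockdown course. With deposited values the control course had 3 higher and 9 lower, and 5 higher once centred on all genes, and the median at day 10 between the lines was 0.34. Deposited values shift the median of all genes by 0.20 at day 4 and 0.37 at day 10 between the lines, 0.17 for control day 4 minus ESCs, -0.58 for the knockdown course and -0.72 for the control course. They also turn the share of higher calls over all genes, to 53.6% (35.4% as reported) at day 4 and 87.2% (40.9% as reported) at day 10 between the lines, and to 64.5% (47.9%), 24.7% (50.9%) and 16.6% (49.6%) for the other comparisons in that order. Centred deposited values gave 56.9% higher at day 10 between the lines. The cause of these shifts was not tested. Faint members, the beta cluster above all, lie near the floor, where intensity over background limits what can be told apart. The low end of the knockdown array at day 10 differed from that of the other arrays, with 1050 deposited values at or below 0.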
